A study of Mus musculus with 6 samples.

Results

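The miR-130/miR-301 family was followed across mouse embryonic stem cells (ESCs) grown in serum, 2i or R2i medium. Its members were the table rows named after the miR-130a, miR-130b, miR-301a and miR-301b hairpins, which gave 7 of the 1907 listed mature miRNAs: mmu-miR-130a-3p, mmu-miR-130b-3p, mmu-miR-130b-5p, mmu-miR-301a-3p, mmu-miR-301a-5p, mmu-miR-301b-3p and mmu-miR-301b-5p. The partner arm mmu-miR-130a-5p was not among the chosen names and is given beside them. Small RNA was sequenced from 2 ESC lines, RB18 and RB20, in each of the 3 media, which gave 6 libraries, each from a pool of 3 cultures. Both lines came from C57BL/6 mice, were derived in R2i with LIF, and were kept without feeders on gelatin. Serum cells grew with 15% fetal bovine serum, and cells in the other 2 media grew without serum in N2B27. In 2i, MEK was inhibited with PD0325901 (1 µM) and GSK3 with CHIR99021 (3 µM). In R2i, the same dose of PD0325901 was combined with SB431542 (10 µM), which inhibits the TGF-β receptor. LIF was present at 1000 U/ml in all 3 media, and the serum and 2i cultures had been passaged at least 10 times after leaving R2i. Since a medium had 1 library per line, its replicate error holds differences between lines, pools and sequencing together.

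A microRNA hairpin gives a 5p and a 3p arm, and the arm that is loaded into an Argonaute protein directs it to messenger RNAs that pair with the seed, the bases near its 5′ end. In the miR-130/miR-301 family the 3p arms share 1 seed and are usually the abundant, loaded arms, whereas the 5p arms are mostly discarded during loading. The family is known for repressing Pparg in fat and vascular cells, and several of its members have been reported to promote the reprogramming of fibroblasts to pluripotency.

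The mature sequences are shown because arms with 1 seed were called differently. They were read from RefSeq for GRCm38.p6, which held 6 of the 7 members and mmu-miR-130a-5p, and capitals mark the seed, bases 2 to 8.
mmu-miR-130a-3p: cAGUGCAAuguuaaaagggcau
mmu-miR-130b-3p: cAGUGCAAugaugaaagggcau
mmu-miR-301a-3p: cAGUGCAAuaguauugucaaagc
mmu-miR-130a-5p: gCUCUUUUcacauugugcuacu
mmu-miR-130b-5p: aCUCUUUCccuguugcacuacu
mmu-miR-301a-5p: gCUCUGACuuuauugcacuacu
mmu-miR-301b-5p: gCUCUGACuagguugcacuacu

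The 3 sequenced 3p arms carried the same seed, AGUGCAA. Positions were counted from 1 at the 5′ end, with the base of the first-named arm written first. mmu-miR-130a-3p and mmu-miR-130b-3p were identical at 20 of 22 bases and differed by U11A and A13G, both outside the seed. mmu-miR-301a-3p was identical to them at 12 and 11 of 22 bases, among them the first 9. Among the 5p arms, mmu-miR-301a-5p and mmu-miR-301b-5p shared the seed CUCUGAC and differed by U10A, U11G and A12G. The seeds of mmu-miR-130a-5p and mmu-miR-130b-5p differed from it and from each other.

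The seed AGUGCAA occurred in 7 of the 1623 listed miRNAs for which a sequence was found. Besides the 3 members these were mmu-miR-130c, mmu-miR-6341, mmu-miR-6389 and mmu-miR-721, and each of those had a count of 0 in all 6 libraries. A count of 0 allows up to 3 counts, which equals 0.858 to 2.57 normalized CPM (TMM-scaled counts per 1e6) depending on the library, for counting error alone.

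The hairpins are shown to place the seed within each precursor, with AGUGCAA in capitals, also from RefSeq for GRCm38.p6.
Mir130a: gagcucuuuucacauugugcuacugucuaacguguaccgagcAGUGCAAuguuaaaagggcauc
Mir130b: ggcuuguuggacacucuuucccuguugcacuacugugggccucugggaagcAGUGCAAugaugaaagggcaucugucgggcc
Mir301: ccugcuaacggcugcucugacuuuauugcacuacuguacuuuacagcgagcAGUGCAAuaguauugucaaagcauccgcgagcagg
Mir301b: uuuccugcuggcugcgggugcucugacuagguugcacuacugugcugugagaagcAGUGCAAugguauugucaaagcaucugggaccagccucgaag

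The 4 hairpins lie at 3 places in GRCm38. Mir130b (chr16:17124061-17124142, minus strand) and Mir301b (chr16:17124400-17124496, minus strand) are 257 bases apart within introns of 2610318N02Rik, a protein-coding gene on the same strand. Mir301, the gene of miR-301a (chr11:87113004-87113089, plus strand), lies in an intron of Ska2, which encodes a protein of the spindle and kinetochore and runs on the same strand. Mir130a (chr2:84741115-84741178, minus strand) is intergenic, with Ypel4 2460 bases to its left and Gm19426 991 bases to its right. No other miRNA gene was annotated within 10 kb of any of them. The pair Mir130b and Mir301b are thus neighbours, whereas by sequence mmu-miR-130b-3p was closest to mmu-miR-130a-3p, and mmu-miR-301b-5p to mmu-miR-301a-5p.

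The RB18 libraries held 1744187 counts for serum, 2057602 for 2i and 1041858 for R2i, and those of RB20 held 2243369, 3365676 and 3593356, so RB18 was the shallower line in each medium. Counts were scaled by TMM to normalized CPM. The 6 ESC markers of the miR-290 to miR-295 cluster were detected in every library, at a summed level between 264500 and 344800 normalized CPM. Their most abundant miRNA was mmu-miR-295-3p, and edgeR called 0 of 6 in any contrast. Differential expression was tested by edgeR's quasi-likelihood test over the 571 miRNAs that passed the filter on low counts, with 1 coefficient per medium. A member was called when its p, adjusted by Benjamini-Hochberg over those 571, was under 0.01 and its change exceeded 2-fold. All 7 members passed the filter, which also takes miRNAs that are high in 1 medium. mmu-miR-301b-5p passed through its counts in 2i and R2i, since each serum library had 5.

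The 3p arms of the miR-130 hairpins were the most abundant members in serum. mmu-miR-130a-3p was at 7751 and 6014 normalized CPM in serum (RB18 first), at 6070 and 5495 in 2i and at 7924 and 6546 in R2i. The range of serum overlapped those of 2i and R2i, whereas both R2i libraries lay above both 2i libraries. It ranked between 22 and 29 among all miRNAs of a library. mmu-miR-130b-3p was at 2322 and 2715 normalized CPM in serum, at 3028 and 3224 in 2i and at 2974 and 3864 in R2i. All 4 ground-state libraries (2i and R2i) lay above both serum libraries, but the nearest of them was closer to serum than the serum libraries were to each other.

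Neither miR-130 arm was called. For mmu-miR-130a-3p the log2 fold change was −0.25 (SE 0.24, edgeR adjusted p = 0.411) in 2i against serum and 0.07 (SE 0.24, edgeR adjusted p = 0.846) in R2i against serum. For mmu-miR-130b-3p it was 0.31 (SE 0.24, edgeR adjusted p = 0.302) and 0.44 (SE 0.24, edgeR adjusted p = 0.176). The 95% intervals ran from −0.80 to 0.30 and from −0.48 to 0.62 for mmu-miR-130a-3p, and from −0.24 to 0.86 and from −0.11 to 0.99 for mmu-miR-130b-3p, all of them short of a 2-fold change. The estimate for mmu-miR-130a-3p turned to 0.02 in 2i without the RB18 serum library and to −0.10 in R2i without the RB20 serum library or the RB18 R2i library.

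The 3p arms of the miR-301a and miR-301b hairpins had their lowest levels in serum. mmu-miR-301a-3p was at 1154 and 1649 normalized CPM in serum, at 3434 and 3955 in 2i and at 2905 and 3105 in R2i. The media did not overlap: both serum libraries were lowest, both R2i libraries followed, and both 2i libraries were highest. Its rank in a library moved from 75 and 65 in serum to 39 and 33 in 2i and 39 and 37 in R2i, close to that of mmu-miR-130b-3p. mmu-miR-301b-3p was at 316.5 and 640.5 normalized CPM in serum, at 966 and 1440 in 2i and at 857 and 976 in R2i. Both serum libraries were again lowest, but they lay far apart, and the ranges of 2i and R2i overlapped.

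mmu-miR-301a-3p rose 2.64-fold in 2i (log2 1.40, SE 0.26, edgeR adjusted p = 0.00271) and 2.14-fold in R2i (log2 1.1, SE 0.25, edgeR adjusted p = 0.00924). mmu-miR-301b-3p had a log2 fold change of 1.33 in 2i (SE 0.38, edgeR adjusted p = 0.0196) and of 0.94 in R2i (SE 0.37, edgeR adjusted p = 0.081), and was not called. Its interval in 2i ran from 0.46 to 2.20, which holds the estimate for mmu-miR-301a-3p. Without the RB20 serum library, the higher of the pair, its log2 fold change in 2i was 1.93 and it was called (edgeR adjusted p = 0.00652). In R2i it was 1.53 without that library (edgeR adjusted p = 0.0158) and 0.61 without the RB18 serum library (edgeR adjusted p = 0.151), and was called in neither fit. With the cell line as a replicate block it was also called in 2i (log2 1.37, edgeR adjusted p = 0.00961). The call of mmu-miR-301a-3p in 2i was lost without the RB20 library of 2i (log2 1.29, edgeR adjusted p = 0.0254).

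**Figure D1:**
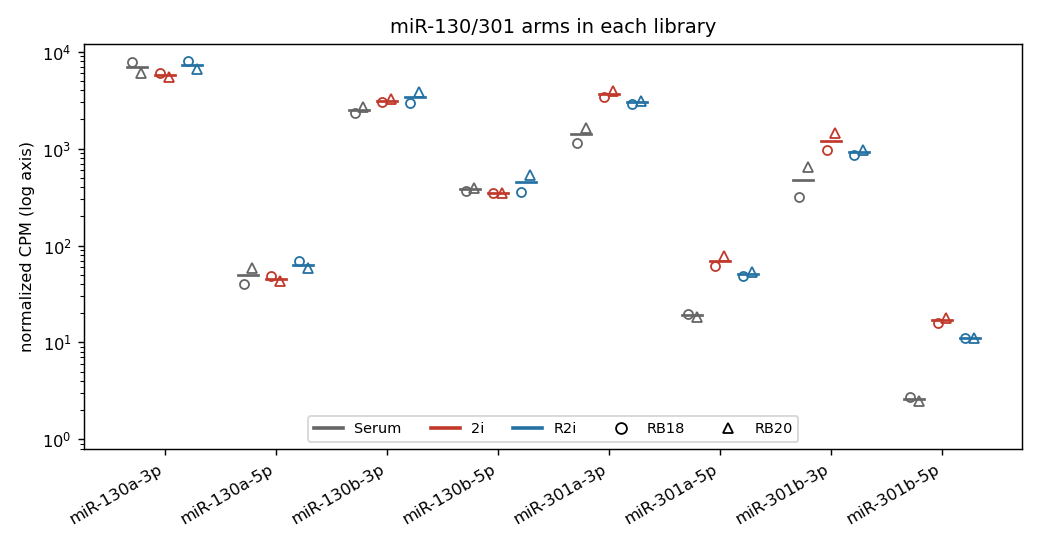
Normalized CPM (log axis) of each arm of the 4 hairpins in the 6 libraries; color gives the medium, circles RB18 and triangles RB20, and bars the mean of 2 libraries. In the 4 arms of miR-301a and miR-301b both serum libraries lie below all 4 libraries of 2i and R2i. mmu-miR-301a-3p shows this with 1154 and 1649 against 2905 to 3955. The share of all tested miRNAs with such a separation was not counted.

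Each 5p arm was lower than the 3p arm of its hairpin. mmu-miR-301a-5p was at 19.7 and 18.3 normalized CPM in serum, at 62.2 and 77.2 in 2i and at 48.0 and 53.2 in R2i. mmu-miR-301b-5p had only 5 counts in each serum library, whereas 2i gave 33 and 59 counts, and R2i 13 and 39. As normalized CPM these were 2.74 and 2.48 in serum and 16.04 and 18.01 in 2i, while R2i gave 11.2 and 11.2. In both 5p arms the media stood apart in the same order as for mmu-miR-301a-3p, serum lowest and 2i highest. How many of all tested miRNAs did so was not counted.

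mmu-miR-301a-5p rose 3.67-fold in 2i (log2 1.88, SE 0.25, edgeR adjusted p = 0.000449) and 2.67-fold in R2i (log2 1.42, SE 0.25, edgeR adjusted p = 0.00239). mmu-miR-301b-5p rose 6.45-fold in 2i (log2 2.69, SE 0.40, edgeR adjusted p = 0.000847) and 4.22-fold in R2i (log2 2.08, SE 0.42, edgeR adjusted p = 0.00464). Both folds of mmu-miR-301b-5p rest on the 5 counts in each serum library. That arm passed the filter through its counts in 2i and R2i, so no conclusion is drawn from its calls. mmu-miR-130b-5p lay between 347 and 540 normalized CPM in all 6 libraries, with a log2 fold change of −0.13 (SE 0.27, edgeR adjusted p = 0.709) in 2i and 0.24 (SE 0.27, edgeR adjusted p = 0.506) in R2i. The partner arm mmu-miR-130a-5p lay between 40.0 and 68.6 normalized CPM and was not called in either contrast (edgeR adjusted p = 0.738 and 0.321).

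Counted together, edgeR called 3 of 7 members higher and 0 lower in 2i against serum, where 34.2% of the 571 tested miRNAs were called in either direction. In R2i against serum it called 3 of 7 higher and 0 lower, against 30.6% of all tested. The share of all tested miRNAs called higher was 16.8% and 15.1%. Since mmu-miR-301b-5p, 1 of the 3, entered through the media in which it was high, these counts do not support a change of the family as a whole. With at least 10 counts required in every library it was not tested, and 2 members were called in each of these contrasts. With no filter on low counts it was called in both (log2 2.74 and 2.10). At an unadjusted p under 0.05, 4 of 7 members passed in each contrast, all of them miR-301a and miR-301b arms with positive values. Of all tested miRNAs, 57.6% in 2i and 49.6% in R2i passed in either direction, and 28.5% and 22.8% passed with a positive value. DESeq2 and limma also called 0 members lower. The 2 contrasts share the serum libraries, so the second is no repeat of the first.

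The R2i calls stood close to the limit. Without either R2i library, 0 of 7 members were called, with edgeR adjusted p between 0.0113 and 0.0501 for the 3 arms. Without any 1 of the other 4 libraries, 1 of 7 was called: mmu-miR-301a-5p, or, without the RB20 serum library, mmu-miR-301a-3p. In those 4 fits the lost arms had edgeR adjusted p from 0.0126 to 0.0251. Over all 6 omissions the log2 fold changes stayed positive and ran from 0.96 to 1.38 for mmu-miR-301a-3p, from 1.33 to 1.55 for mmu-miR-301a-5p and from 2.01 to 2.22 for mmu-miR-301b-5p.

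**Figure D2:**
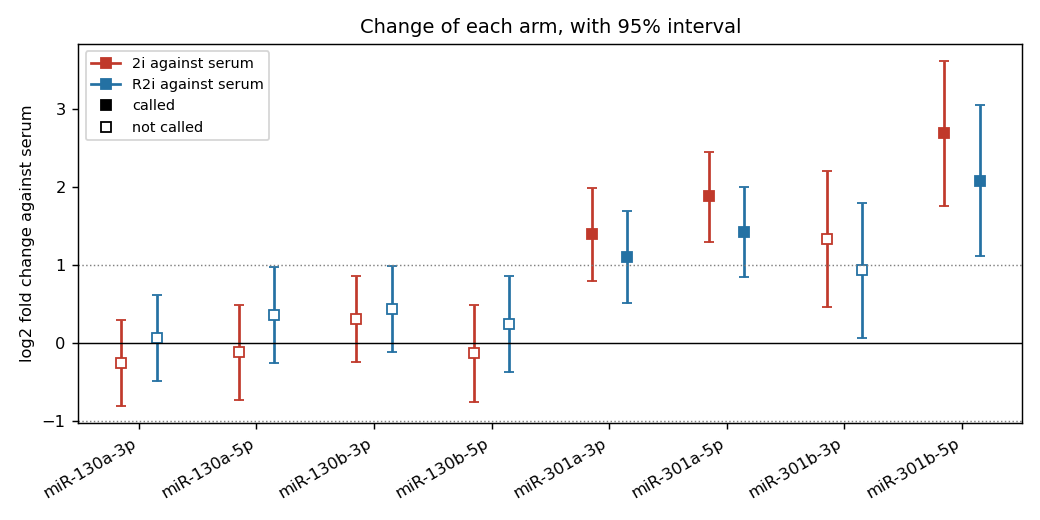
Log2 fold change of each arm against serum in 2i (red) and R2i (blue) from edgeR, with 95% intervals; filled squares were called and dotted lines mark 2-fold. mmu-miR-301a-3p, mmu-miR-301a-5p and mmu-miR-301b-5p were called in both media, and the intervals of the miR-130 arms span 0.

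The question of whether the choice of the second inhibitor mattered was addressed by 2i against R2i. edgeR called 0 of 7 members in that contrast, where 0.35% of all tested miRNAs were called. At an unadjusted p under 0.05 in edgeR, 0 members passed, beside 18.2% of all tested miRNAs. DESeq2 and limma called 0 members as well. The log2 differences were positive in all 4 arms of miR-301a and miR-301b, 0.30 (SE 0.25), 0.46 (SE 0.23), 0.39 (SE 0.37) and 0.61 (SE 0.33) for miR-301a-3p, miR-301a-5p, miR-301b-3p and miR-301b-5p, with edgeR adjusted p from 0.333 to 0.623. They were negative in the 3 listed miR-130 arms, between −0.37 and −0.13. Of all 571 tested miRNAs, 290 had a positive difference, and no conclusion is drawn from these signs. Without the RB20 library of R2i, mmu-miR-130b-3p turned to 0.07, while mmu-miR-130b-5p was at −0.05 and mmu-miR-130a-3p at −0.45. The intervals of mmu-miR-301b-3p (−0.46 to 1.25) and mmu-miR-301b-5p (−0.14 to 1.37) hold a 2-fold difference between these media, so likeness of the media was not shown for them.

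Taking 2i and R2i as 1 ground state, edgeR called 3 of 7 members higher and 0 lower than in serum, where 37% of all tested miRNAs were called and 17.0% were called higher. mmu-miR-301a-3p rose 2.38-fold (log2 1.25, SE 0.23, edgeR adjusted p = 0.00254), mmu-miR-301a-5p 3.13-fold (log2 1.65, SE 0.23, edgeR adjusted p = 0.000529) and mmu-miR-301b-5p 5.21-fold (log2 2.38, SE 0.38, edgeR adjusted p = 0.00108). The last of these entered through the ground-state libraries, so no conclusion is drawn from its call. With at least 10 counts in every library it was not tested and 2 members were called, and with no filter it was called (log2 2.42). mmu-miR-301b-3p had a log2 fold change of 1.13 (SE 0.34, edgeR adjusted p = 0.0238). It was called only in some alternatives, among them library totals (log2 1.23, edgeR adjusted p = 0.00678). Its log2 fold change was 1.73 without the RB20 serum library, 0.80 without the RB18 serum library and 0.97 without the RB20 library of 2i. Omitting the RB20 library of 2i ended the call of mmu-miR-301a-3p (edgeR adjusted p = 0.012), and omitting the RB20 serum library ended that of mmu-miR-301b-5p (edgeR adjusted p = 0.0106).

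Larger changes than these were present in the table. Of all tested miRNAs, 20.1% had a higher log2 fold change than mmu-miR-301a-3p in ground state against serum, and 14.2% had a higher one than mmu-miR-301b-5p. The level of mmu-miR-301a-3p averaged 3350 normalized CPM over the ground-state libraries (SD 459, n = 4) and 1402 over those of serum (SD 350, n = 2).

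**Figure D3:**
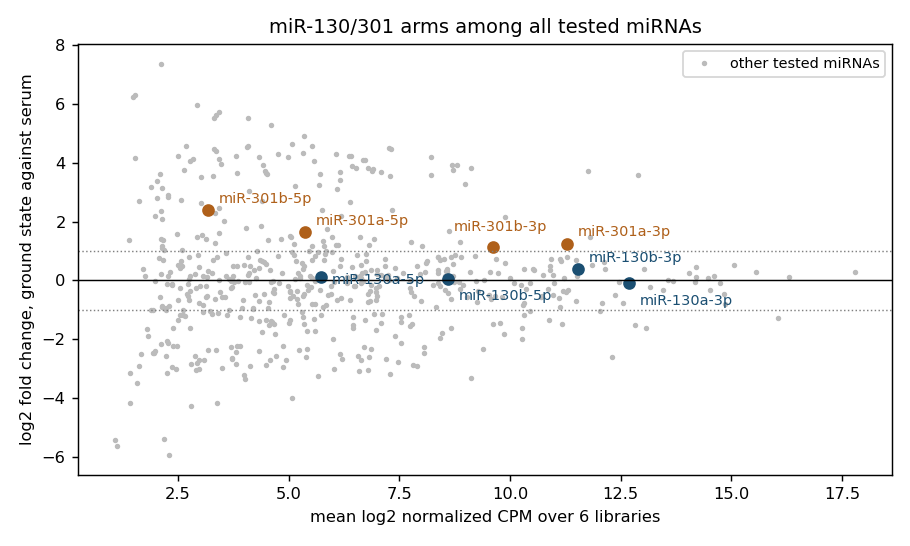
Each of the 571 tested miRNAs by its mean log2 normalized CPM over 6 libraries and its log2 fold change in ground state against serum from edgeR; orange points are the arms of miR-301a and miR-301b, blue points those of miR-130a and miR-130b, and dotted lines mark 2-fold. The orange points lie between 1.13 and 2.38 and the blue points between −0.09 and 0.38.

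The miR-301a and miR-301b arms were higher than in serum within each line, and the share of all tested miRNAs that were so was not counted. In RB18 the log2 difference of mmu-miR-301a-3p was 1.57 in 2i and 1.33 in R2i, and in RB20 it was 1.26 and 0.91. For mmu-miR-301b-3p it was 1.61 and 1.43 in RB18, and 1.17 and 0.61 in RB20. For the 5p arms the differences lay between 1.25 and 2.50 in both lines and media. All of these came from log2 normalized CPM with a prior count of 2, which shrinks differences at low counts. For mmu-miR-301b-5p both lines lay below the edgeR estimates, at 2.23 and 2.50 in 2i and 1.74 and 1.85 in R2i. A test of the difference between lines in ground state against serum called 0 of 7 members (edgeR adjusted p from 0.843 to 0.999), and 0 had an unadjusted p under 0.05. Of all 571 tested it also called 0, with 4.73% at an unadjusted p under 0.05, so the 0 does not set the members apart. That test had 1 serum library per line, and its estimate for mmu-miR-301b-3p was −0.61 on the log2 scale (RB20 minus RB18).

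Summed over the 4 3p arms, the family took 1.21% and 0.991% of all counts with serum, 1.35% and 1.37% with 2i, and 1.64% and 1.41% with R2i. Every ground-state library lay above both serum libraries. Each sum held between 17089 and 50658 counts, so that even the widest exact 95% binomial interval, that of RB18 in R2i, ran only from 1.62% to 1.66%. Such intervals cover counting error only. In normalized CPM the mean sum was 11281 in serum (SD 371, n = 2) and 14191 in the ground state (SD 515, n = 4), a difference of 2910. mmu-miR-301a-3p made up 1948 of that difference, mmu-miR-130b-3p 754 and mmu-miR-301b-3p 581, while mmu-miR-130a-3p lowered it with −374. For mmu-miR-130a-3p the RB20 serum library was at 6014, below the ground-state mean of 6509. The negative sign of its part thus rests on the RB18 serum library.

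The make-up of the sum differed between the media. mmu-miR-130a-3p held 67.1% and 54.6% of the summed 3p counts in serum, but 45.0% and 38.9% in 2i and 54.1% and 45.2% in R2i. mmu-miR-301a-3p held 10.0% and 15.0% in serum and 25.4% and 28.0% in 2i, while R2i gave 19.8% and 21.4%. The share of mmu-miR-301a-3p did not overlap between any 2 media, and that of mmu-miR-130a-3p was lower in all 4 ground-state libraries than in both serum libraries. mmu-miR-301b-3p averaged 4.28% ± 2.17 for serum, 8.68% ± 2.16 for 2i and 6.29% ± 0.629 for R2i (SD, n = 2 each), and mmu-miR-130b-3p averaged 22.4% ± 3.20, 22.6% ± 0.29 and 23.5% ± 4.51. The serum share of mmu-miR-301b-3p was 2.74% in RB18 and 5.81% in RB20, the latter close to the 5.85% of RB18 in R2i. In each medium RB18 held more mmu-miR-130a-3p and less mmu-miR-301a-3p than RB20. As shares of 1 sum these values are bound to each other, and no test was made on them.

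**Figure D4:**
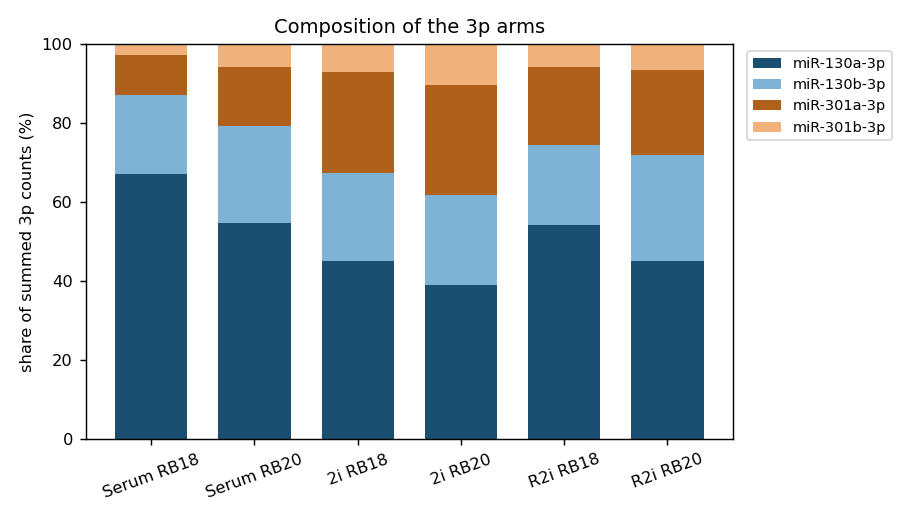
Share (%) of each 3p arm in the summed counts of the 4 3p arms, for each library. mmu-miR-301a-3p (dark orange) takes 10.0% and 15.0% in serum and 19.8% to 28.0% in the other 4 libraries, while mmu-miR-130b-3p (light blue) stays between 20.1% and 26.7%.

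Ratios within a library do not depend on its scaling, and 4 of them were formed after the values had been seen. The neighbours Mir301b and Mir130b were compared first. The count of mmu-miR-301b-3p over that of mmu-miR-130b-3p was 0.136 and 0.236 in serum and 0.319 and 0.447 in 2i, while R2i gave 0.288 and 0.253. The 5p arms of these hairpins gave 0.00753 and 0.00625 in serum and 0.0463 and 0.0518 in 2i, while R2i gave 0.0311 and 0.0207. Neither ratio overlapped between serum and the ground state. The ratio was 1.78-fold higher for the 3p arms and 5.14-fold higher for the 5p arms in the ground state, each with an exact permutation p = 0.133 for 4 against 2 libraries (0.177 adjusted over the 4 ratios). That p is a doubled one-sided p, and no smaller one can arise by this rule. Over single omitted libraries the log2 difference ran from 0.44 to 1.23 for the 3p arms (0.83 with all) and from 2.18 to 2.62 for the 5p arms (2.36 with all).

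The ratio of mmu-miR-301a-3p to mmu-miR-301b-3p, whose genes lie on different chromosomes, was 3.65 and 2.57 in serum and 3.56 and 2.75 in 2i, while R2i gave 3.39 and 3.18. The media overlapped, and the ratio was 1.05-fold that in serum (exact permutation p = 0.933, 0.933 adjusted over the 4 ratios). Without the RB20 serum library its log2 difference turned from 0.06 to −0.19. The ratio of mmu-miR-301a-3p to mmu-miR-130a-3p, which have the same seed, was 0.149 and 0.274 in serum and 0.566 and 0.720 in 2i, while R2i gave 0.367 and 0.474. It was 2.55-fold higher in the ground state without overlap (log2 1.35, from 0.91 to 1.79 over single omitted libraries; exact permutation p = 0.133, 0.177 adjusted over the 4 ratios).

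Counts of near-identical arms are uncertain. The Mir301b hairpin holds a 23-base stretch that differs from mmu-miR-301a-3p only by A10G (positions from the 5′ end of the mature arm), and mmu-miR-130a-3p and mmu-miR-130b-3p differ at 2 bases. The number of mismatches allowed and the treatment of reads with several places are not given in the sources used here, so how reads were divided within these pairs was not tested. mmu-miR-301a-3p differed from mmu-miR-130a-3p at 10 and from mmu-miR-130b-3p at 11 of 22 bases.

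The hairpins differed in how much of the 5p arm was counted. The 5p arm made up 13.5% and 12.7% of both arms of miR-130b in serum and 10.3% and 9.73% in 2i, while R2i gave 10.8% and 12.3%. Its share was highest in the serum libraries, although the exact 95% interval of RB20 in serum (11.9% to 13.6%) overlapped that of RB20 in R2i (11.7% to 12.8%). In miR-130a the 5p share lay between 0.513% and 0.963%, with the serum libraries on both sides of the rest. In miR-301a it was 1.68% and 1.1% in serum and 1.78% and 1.92% in 2i, while R2i gave 1.63% and 1.68%. Both 2i libraries were thus highest, and the exact 95% interval of RB18 in serum (1.18% to 2.32%) held both of their values, whereas that of RB20 in serum (0.776% to 1.51%) lay below both and below the interval of RB20 in 2i (1.69% to 2.16%). For miR-301b it was 0.858% and 0.386% in serum and 1.63% and 1.24% in 2i, while R2i gave 1.28% and 1.13%. Those serum values rest on 5 counts each, with exact 95% intervals of 0.279% to 1.99% and 0.125% to 0.897%, so a difference from the RB18 serum library was not detectable at this depth. The RB20 serum interval lay below those of both 2i libraries (1.13% to 2.29% in RB18 and 0.942% to 1.59% in RB20). It overlapped those of both R2i libraries (0.686% to 2.19% in RB18 and 0.805% to 1.54% in RB20). All of these intervals cover counting error only. Within serum alone, those of miR-130a did not overlap (0.402% to 0.645% in RB18 and 0.798% to 1.15% in RB20). No difference between media was tested with them.

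**Figure D5:**
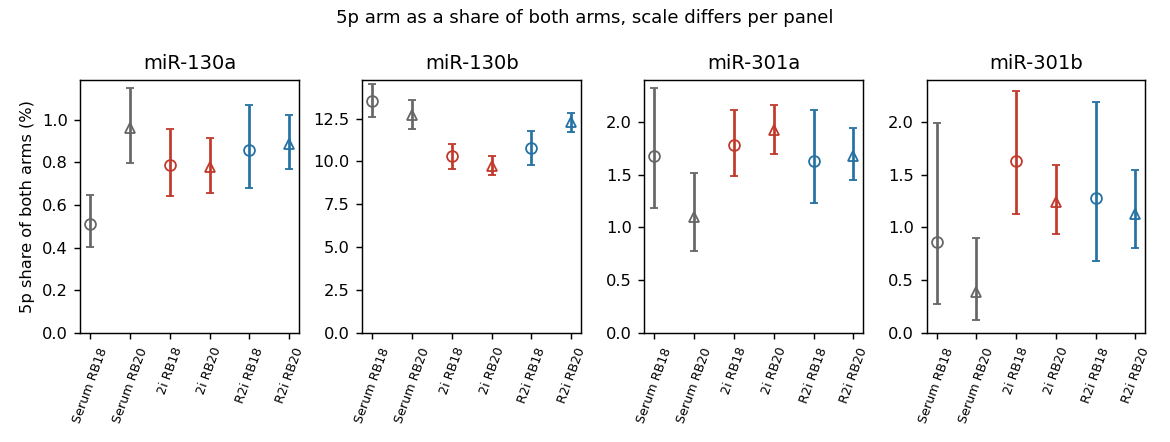
Share (%) of the 5p arm in the counts of both arms of each hairpin, by library, with exact 95% binomial intervals; gray is serum, red 2i and blue R2i, and each panel has its own scale from 0. The 5p share of miR-130b lies between 9.73% and 13.5%, and that of the other 3 hairpins between 0.386% and 1.92%.

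Likeness between miRNAs was measured as the root mean square difference of log2 normalized CPM over the 6 libraries, each miRNA centred on its own mean. Within the family mmu-miR-301a-3p and mmu-miR-301b-3p were closest (0.19), followed by the arms of miR-130b (0.20) and the 5p arms of miR-301a and miR-301b (0.24). The neighbours mmu-miR-130b-3p and mmu-miR-301b-3p stood at 0.52. Among all other tested miRNAs, mmu-miR-218-5p was nearest to mmu-miR-301a-3p (0.09), before mmu-miR-98-5p (0.17) and mmu-miR-16-1-3p (0.18). The nearest to mmu-miR-301b-3p were mmu-let-7c-2-3p (0.17), mmu-miR-218-5p (0.24) and mmu-miR-103-3p (0.27). The first of these averaged only 5.62 normalized CPM, so its likeness rests on low counts. Those nearest to mmu-miR-130a-3p were mmu-miR-339-3p (0.10), mmu-miR-291a-3p (0.14) and mmu-miR-6236 (0.14), and those nearest to mmu-miR-130b-3p were mmu-miR-872-5p (0.12), mmu-miR-26a-2-3p (0.12) and mmu-miR-700-3p (0.13).

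Related seeds were set beside the family. The arms of miR-148a, miR-148b and miR-152 hold AGUGCA from base 3, 1 base later than the family's seed, as in mmu-miR-148a-3p, shown with AGUGCA in capitals.
mmu-miR-148a-3p: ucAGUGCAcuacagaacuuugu
All 3 of these arms were tested, and edgeR called 0 of 3 in 2i, R2i or the ground state against serum. Their median log2 fold change was 0.21 in 2i and 0.08 in R2i, but mmu-miR-152-3p had 1.22 (edgeR adjusted p = 0.0234) in 2i and −0.72 (edgeR adjusted p = 0.154) in R2i. Their most abundant arm, mmu-miR-148a-3p, was at 8163 and 16320 normalized CPM in serum, at 11230 and 12710 in 2i and at 11790 and 14140 in R2i, with the serum libraries on both sides of the rest. Of a fixed list of 11 miRNAs of ESCs that carry AAGUGC near the 5′ end, edgeR called 1 higher in 2i (mmu-miR-302b-3p) and 3 higher in R2i (mmu-miR-302a-3p, mmu-miR-302b-3p and mmu-miR-302d-3p), and 0 lower in either, with a median of 0.34 and 0.11. The list was not complete. After the values had been seen, the listed miRNAs with AAGUGC in bases 1 to 8 were added, which gave 16 tested. Of these, edgeR called 2 higher in 2i and 4 higher in R2i, beside a share of 16.8% and 15.1% of all tested, and 0 lower. Their median log2 fold change was 0.14 in 2i and 0.07 in R2i. The further call in each was mmu-miR-302c-3p (log2 2.154, edgeR adjusted p = 0.00635 in 2i; log2 3.171, edgeR adjusted p = 0.00116 in R2i).

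Marker miRNAs of other cells also differed between the media. Of the 4 fibroblast markers, all 4 had a count in 3 libraries, and 3 of 4 did in the others. They summed to 1420 and 1968 normalized CPM in serum, to 3269 and 3554 in 2i and to 2289 and 2348 in R2i. Among the single markers, only the most abundant, mmu-miR-143-3p, kept the order of media of mmu-miR-301a-3p. It ranged from 1318 to 1877 for serum, 2120 to 2209 for R2i and 3114 to 3380 for 2i. For mmu-miR-145a-5p, RB18 serum (66.8) lay above RB18 in 2i (53.94). mmu-miR-199a-3p was lowest in serum, but RB18 in R2i (106.4) lay above both 2i libraries (100.6 and 84.88). mmu-miR-214-3p was at 0 in both 2i libraries and in RB20 serum. edgeR called 0 of the 3 tested fibroblast markers. The 3 muscle markers summed to 79.4 and 46.6 in serum, to 0.486 and 0.305 in 2i and to 7.72 and 4.005 in R2i. The most abundant of them was mmu-miR-133a-3p in RB18 serum and in 2i and mmu-miR-1a-3p in the other 3 libraries. mmu-miR-1a-3p was at 0 in 2i, and mmu-miR-206-3p was at 0 in all libraries but RB20 serum. Both tested markers were called lower in 2i and R2i. They passed the filter through serum, where they were high, so no conclusion is drawn from these calls.

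The 3 blood markers summed to 248 and 258 normalized CPM in serum, to 353 and 131 in 2i and to 111 and 44.9 in R2i. Their most abundant miRNA was mmu-miR-142a-3p, and mmu-miR-223-3p was at 0 in every library. mmu-miR-451a was called higher in both media, but it passed the filter through its counts in 2i and R2i. In serum it was at 0 and 1.487 normalized CPM, so no conclusion is drawn from that call. The 2 neural markers summed to 753 and 549 in serum, to 519 and 430 in 2i and to 457 and 493 in R2i, with mmu-miR-124-3p most abundant and 0 of 2 called. The liver marker mmu-miR-122-5p reached at most 3.47 normalized CPM. The part of other cells in the differences of the miR-301a and miR-301b arms was not tested, and in these bulk libraries fewer cells of a type and less RNA per cell cannot be told apart.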

How the data were processed

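Per the submitters' processing notes, FastQC 0.11.5, cutadapt 1.3, Bowtie 1.1.2 and featureCounts 1.5 were used with mm10, with no roles given. The authors trimmed and size-selected reads, aligned them, matched them to known miRNAs and deposited unnormalized counts for 1907 mature miRNAs. The log2 values that the authors deposited for 1233 of these equal log2 of the count divided by a size factor, plus 1. The members and lists were chosen with earlier results of these data known.

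The deposited counts were tested with edgeR 4.0.16 in R 4.3.3, using TMM factors, filterByExpr (minimum count 10, minimum total 15) and a quasi-likelihood fit to all 6 libraries with 3 residual degrees of freedom. The ground state was the mean of the 2i and R2i coefficients. The SE was the log2 fold change over the square root of F, and the biological coefficient of variation was 24.6%. The fit was tested on simulated data. Alternatives were DESeq2 1.42.0, limma 3.58.1 on the log2 values, 3 other scalings, 2 other filters, other limits of a call, fits to fewer libraries and the cell line as a block. Leave-one-out ratios and a sequence-based AAGUGC group were added after the data were seen. Intervals and exact tests came from scipy 1.17.1 and figures from matplotlib 3.10.9, in Python 3.11.15 with numpy 2.4.6 and pandas 2.3.3.

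Libraries of the same line were paired by the line's name in the labels. Across 571 miRNAs the RB20 minus RB18 deviations correlated at 0.211 between serum and 2i, 0.243 between 2i and R2i, and −0.128 between serum and R2i. Named miRNAs were the members, mmu-miR-130a-5p, miRNAs with the same seed or within 10 kb, fixed lists of related seeds and cell markers, and the 3 tested miRNAs most like each 3p arm (prior count 2). Sequences came from RefSeq (GRCm38.p6) and gene context from GENCODE M21 (GRCm38). No column of values was left unused (0 columns).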

Additional observations from a re-analysis of the deposited data

How the results depend on the processing

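The 3 calls in 2i and the 3 in ground state against serum stayed within 2 to 4 under every alternative run. In R2i the count fell from 3 to 1 when only serum and R2i were fitted, and ranged from 0 to 1 over single omitted libraries, where fewer libraries estimate the spread and a lone library is assumed to vary like the others. With at least 10 counts in every library, mmu-miR-301b-5p was not tested and 2 members were called in each contrast with serum. With the line as a replicate block (paired by line), mmu-miR-301b-3p was called in 2i (log2 1.37), and no other call of a member changed. Further settings that called it in 2i were DESeq2 (1.38), library totals (1.38), median-of-ratios factors (1.38), omission of the 5 most abundant miRNAs (1.40) and no filter (1.39).

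Omitting 1 library turned the sign of several values that were never called. The log2 ranges were −0.42 to 0.02 (2i), −0.10 to 0.36 (R2i) and −0.26 to 0.19 (ground state) for mmu-miR-130a-3p, −0.29 to 0.19 (2i) and −0.04 to 0.42 (ground state) for mmu-miR-130a-5p, −0.08 to 0.49 (R2i) and −0.11 to 0.19 (ground state) for mmu-miR-130b-5p, and −0.27 to 0.07 for mmu-miR-130b-3p in 2i against R2i. The ratio of mmu-miR-301a-3p to mmu-miR-301b-3p ranged from −0.19 to 0.32. The causes were not tested.

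Over all tested miRNAs, calls moved from 195 to 128 (2i) and from 211 to 135 (ground state) with at least 10 counts everywhere, where fewer miRNAs were tested, and from 175 to 112 (R2i) without the RB18 library of R2i. In 2i against R2i, 2 became 14 with DESeq2, 25 with no filter, 1 with at least 10 counts everywhere, and 0 with the block, with only those media, or without any 1 library other than RB18 in 2i. Library totals moved the median of all miRNAs in R2i from −0.07 to 0.03, and no sign of a member turned with the scaling. The AAGUGC group extended by sequence had 2 calls in 2i, up from 1, and 4 in R2i, up from 3. Depth limits mmu-miR-301b-5p most, at 5 counts in each serum library.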
